A study of Homo sapiens with 6 samples.

Results

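KRR1 and 51 other genes of ribosome assembly were followed in a colon cancer cell line with and without forced expression of cytoglobin (CYGB), a globin of the cytoplasm. Most of their proteins build the small (40S) ribosomal subunit, while WDR12 and RRS1 act mainly in large subunit assembly. The 52 gene symbols were chosen by function from the small subunit processome and pre-rRNA processing factors, around KRR1, which was itself chosen because its count fell in these same libraries. They matched 53 of the 40173 gene identifiers in the count table, because EMG1 carries 2 identifiers. All 53 were among the 19987 genes that had enough counts to be tested.

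HCT116, a human colorectal carcinoma line, was compared as HCT116-MOCK (3 libraries, labelled wild type, transduced with the control virus) and HCT116-CYGB (3 libraries, labelled as overexpressing CYGB). The CYGB lentivirus carried the CYGB coding region fused to a FLAG tag, and both populations had been transduced and selected with puromycin, so the controls share the viral and drug exposure. Cells were at passage 15 to 20 when taken. The series states 3 biological replicates per group, but separate transductions are not described, so that p-values measure the spread between libraries of 1 stable population per group.

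Libraries held 58138393 to 66035266 counts. The CYGB gene itself had 10 to 34 counts per MOCK library and 27681 to 34935 per CYGB library. Of 11 colon epithelium markers, 10 were measured, and their summed level was 4290 to 4765 CPM (counts scaled to a library size of 1000000), with KRT8, KRT18, KRT19, EPCAM, CDH1 and CDX2 present and VIL1 and CLDN4 under 1 CPM. Of 7 fibroblast markers 6 were under 1 CPM, and so were 4 of 5 immune and 2 of 3 endothelial markers, with COL1A1 and CD68 as the exceptions among the first 2 lists. None of these markers passed the threshold used here. In bulk RNA, fewer cells of a type and less RNA per cell cannot be told apart.

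Ribosome assembly begins in the nucleolus, where RNA polymerase I makes a long precursor RNA and the small subunit processome folds, modifies and cleaves the part that becomes 18S rRNA. The UTP-A and UTP-B complexes and the U3 small nucleolar ribonucleoprotein bind the precursor first, the MPP10 module, GTPases, methyltransferases and helicases act on it afterwards, and late factors carry the particle to the cytoplasm for the last cleavage. KRR1 is a KH-domain protein of this particle that works beside the nucleolar protein KRI1, and its loss in yeast blocks 40S formation.

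The DNA just before the start of these genes was read first, because it is the shared feature that the choice of members did not use. RefSeq start sites (GRCh38.p14) were found for 45 of the 52 symbols. The hexamer CACGTG, an E-box read the same on both strands and bound by MYC-type factors, lay in 19 of the 45 windows from 250 bases before to 50 bases after the start (42.2%), against 9.93% of 11754 windows of tested genes and 7.43% of all 27305 windows. In 13 of these 19 members (68.4%) the E-box lay in the 50 bases after the start, against 132 of 1167 tested genes with an E-box (11.3%). The ETS core CCGGAA, sought on both strands, was in 26 of 45 member windows (57.8%) and 27.3% of tested windows. CCAAT was in 19 member windows (42.2%) and 36.2% of tested windows, the GC box GGGCGG in 82.2% and 67.8%, and TATAAA in 6.67% and 6.25%. The KRR1 window held an ETS core and a CCAAT box and no CACGTG. The KRR1 sequence is shown because KRR1 is the member that fell. The other 3 are members that hold an E-box shortly before the RefSeq start and differed little between the groups. Each is written 5′ to 3′ on the gene's own strand, ends at the base before the RefSeq start, and has the motifs named next in capitals. In KRR1 the capitals mark the CCAAT box and then the ETS core, both as read on the other strand. Elsewhere they mark the E-box only, and an ETS core in UTP4 is left in lower case.
KRR1, chr12:75511610-75511859, minus strand: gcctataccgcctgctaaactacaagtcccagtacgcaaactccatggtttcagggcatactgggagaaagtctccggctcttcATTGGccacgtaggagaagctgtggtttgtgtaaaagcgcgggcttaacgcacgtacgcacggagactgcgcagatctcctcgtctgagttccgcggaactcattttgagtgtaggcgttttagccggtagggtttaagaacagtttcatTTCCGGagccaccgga
UTP20, chr12:101280045-101280104, plus strand: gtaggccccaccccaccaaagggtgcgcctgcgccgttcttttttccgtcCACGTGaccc
NAT10, chr11:34105569-34105628, plus strand: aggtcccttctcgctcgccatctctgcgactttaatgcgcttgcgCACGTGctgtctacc
UTP4, chr16:69132589-69132648, plus strand: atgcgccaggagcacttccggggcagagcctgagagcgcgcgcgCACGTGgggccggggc
In KRR1 the CCAAT box began 166 bases and the ETS core 16 bases before the RefSeq start. The E-box began 10, 15 and 16 bases before it in UTP20, NAT10 and UTP4. RefSeq starts are not always those of the counted transcripts. The main KRR1 transcript begins at 75511621, within the ETS core. The main NAT10 transcript begins at 34105602, so the NAT10 E-box lies inside it. These are matches of letters, and whether any factor binds them was not tested.

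KRR1 (ENSG00000111615, chr12:75490861-75511636, minus strand) was counted 8213, 9545 and 9092 times in MOCK replicates 1 to 3 and 359, 494 and 604 times in CYGB replicates 1 to 3. Every CYGB library was far below every MOCK library, and the groups did not overlap. Scaled to library size, the MOCK mean was 177 CPM ± 3.41 (SD, n = 3) and the CYGB mean 9.44 CPM ± 2.21 (SD, n = 3), which is 5.33% of the MOCK mean and a log2 fold change of -4.23 (SE 0.20). KRR1 was the third of the 53 by mean CPM in MOCK and the 52nd in CYGB, where only the sparse second EMG1 identifier was lower. These values chose KRR1, so they are given as a description without a test.

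**Figure D1:**
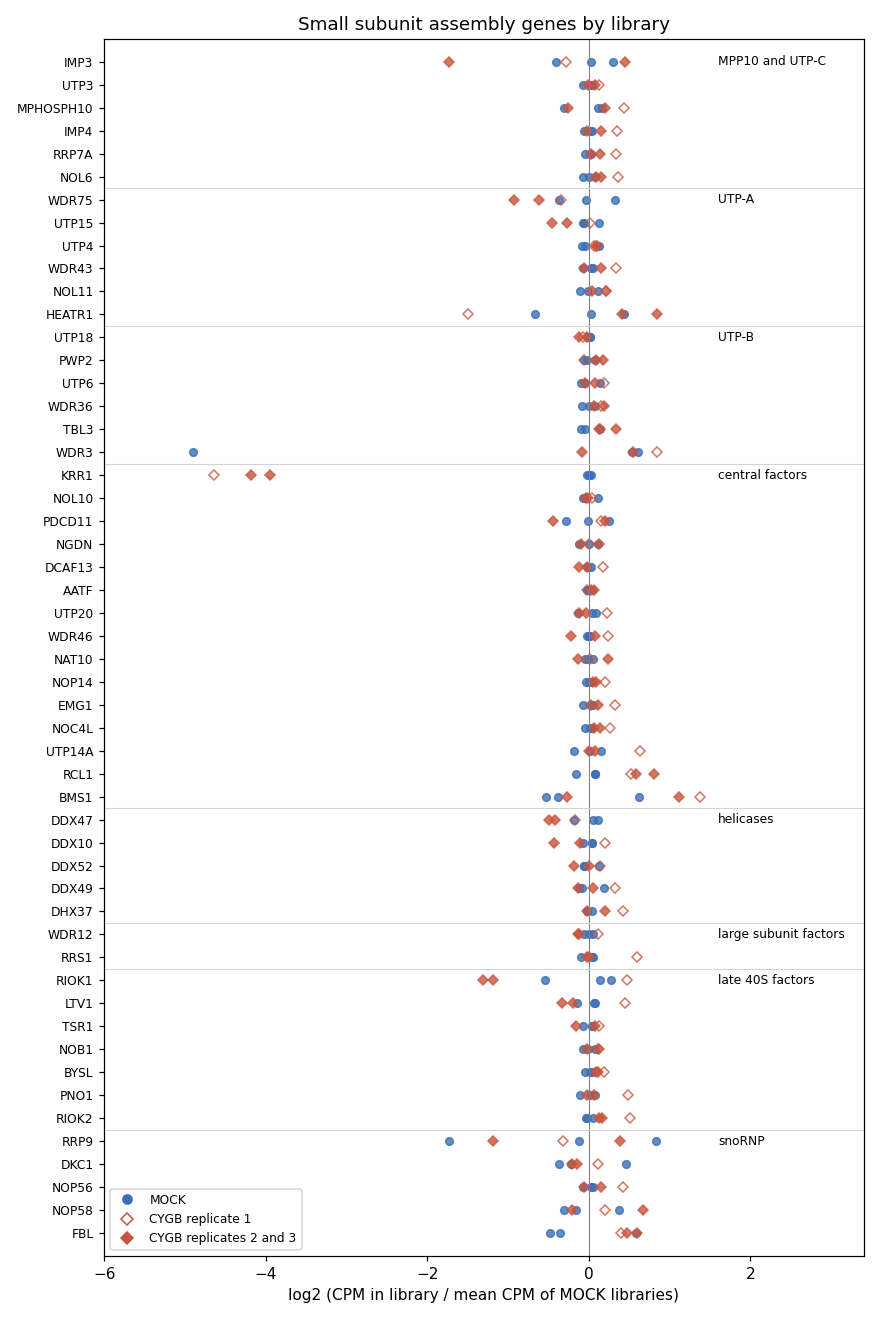
Each point is 1 library, placed by the log2 ratio of its CPM to the mean CPM of the 3 MOCK libraries, for 52 members grouped by role (the second EMG1 identifier is left out); circles are MOCK, open diamonds CYGB replicate 1 and filled diamonds CYGB replicates 2 and 3. KRR1 is the only member with all 3 CYGB points below -3, while most others sit near 0 and WDR3 has 1 MOCK point near -5.

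In MOCK nearly all of the KRR1 count belonged to 1 transcript. ENST00000229214, the coding transcript, has 10 exons and 10118 bases, of which 1143 are coding and 8951 (88.5%) lie 3′ of the coding part. It had 8067, 9364 and 8926 counts in MOCK and 209, 379 and 417 in CYGB, and its share of the gene's counts was 98.2% in MOCK and 69.0% in CYGB. The other 3 transcripts are annotated as retained introns. ENST00000551070 had 67, 98 and 80 counts in MOCK and 32, 50 and 70 in CYGB. Scaled to library size every CYGB value (0.639 to 1.36 CPM) was below every MOCK value (1.40 to 1.87 CPM), although the raw counts overlapped, and the log2 fold change was -0.69. ENST00000550898 had 47, 67 and 60 against 69, 43 and 88, and ENST00000550023 had 32, 16 and 26 against 49, 22 and 29. These last 2 transcripts begin near the start of the coding transcript, at positions 75511636 and 75511613 beside 75511621, and their groups overlapped, with log2 fold changes of 0.19 and 0.41. Their low counts were 0.648% and 0.276% of the gene's counts in MOCK. In CYGB, where the gene total was low, they were 13.7% and 6.86%.

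Per transcript length the fall of KRR1 looked smaller than per count. Its mean level per length, in TPM (transcripts scaled by length to a total of 1000000), was 42.1 in MOCK and 9.27 in CYGB. On this scale the short retained-intron transcripts weigh more than they do by count.

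GLIPR1, which encodes a secreted protein of the CAP family, lies on the opposite strand at chr12:75480680-75503853 and overlaps KRR1. Of the exon bases of the coding KRR1 transcript, 1516 (15.0%) lie within GLIPR1 exons, 312 of them coding. GLIPR1 had 308, 324 and 333 counts in MOCK and 477, 364 and 360 in CYGB, a log2 fold change of 0.29 (edgeR quasi-likelihood test with Benjamini-Hochberg adjustment, adjusted p = 0.963). Whether the counting used strand is not given in the sources used here, so reads of the overlap cannot be told apart. The pseudogene KRR1P1 on chromosome 13 had 81, 82 and 110 counts in MOCK and 51, 73 and 86 in CYGB, and 0 of its 773 windows of 31 bases occurred in KRR1.

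The table also holds 21225 assembled transcripts that carry no gene name and, in the file, no position. Among them the one whose counts best fill the KRR1 shortfall of 167 CPM was sought after the KRR1 values were seen. It had 0, 114 and 0 counts in MOCK and 8543, 7803 and 6258 in CYGB, that is 0.719 CPM ± 1.25 (SD, n = 3) and 147 CPM ± 25.6 (SD, n = 3). Every CYGB library was above every MOCK library. Added to KRR1, the sum averaged 178 CPM ± 4.58 over MOCK and 157 CPM ± 23.5 over CYGB libraries (SD, n = 3), a log2 fold change of -0.18. Since this transcript was picked to fill the gap, a sum near the MOCK level is what the search looks for. In all, 19 of the 21225 transcripts and 6 genes had at most 10% of the shortfall in MOCK and 50% to 150% of it in CYGB. The closest had a root mean square distance of 20.5 CPM from the shortfall, and the next 52.5 CPM. Whether its reads come from the KRR1 locus was not tested, so the fall of KRR1 is a fall of the counts assigned to KRR1.

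**Figure D2:**
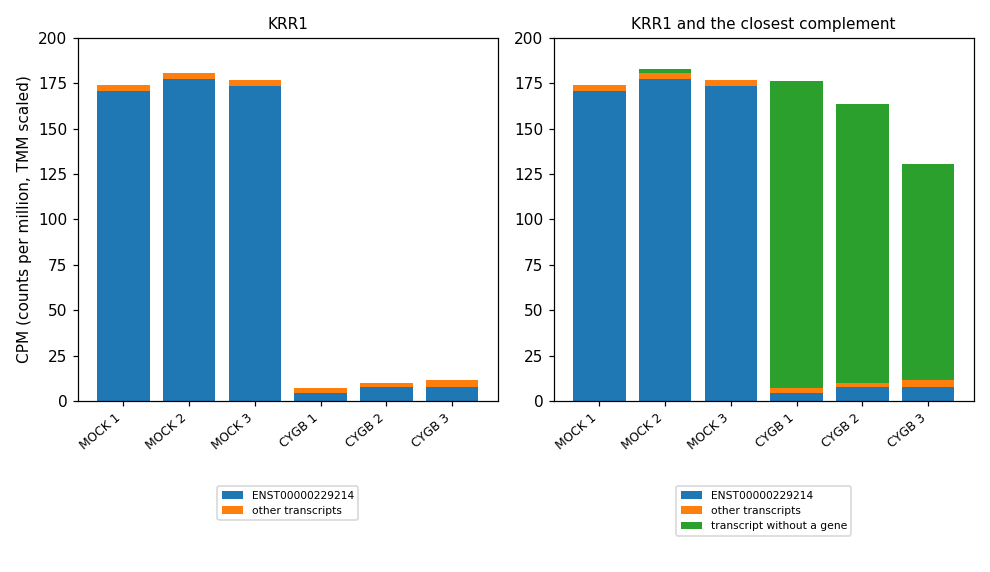
Stacked bars give CPM by library for the KRR1 transcripts (left) and for KRR1 with the unnamed transcript that fills its shortfall most closely (right, chosen after the values were seen). The left-hand bars reach 174 to 181 CPM in the MOCK libraries and 7.11 to 11.5 CPM in the CYGB libraries, and the right-hand sums are 130.6 to 183 CPM.

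Among the other 52 identifiers none passed the threshold of the study's methods, which is an unadjusted p of at most 0.01 with a ratio of at least 2 or at most 0.5. With KRR1 the count is 1 of 53, where 0.565% of all tested genes passed (0.28% higher and 0.285% lower in CYGB), and KRR1 was chosen on this contrast. At an adjusted p under 0.05 the count was again KRR1 alone, where 0.055% of tested genes passed. At an unadjusted p under 0.05 the edgeR test gave 3 of the other 52 (5.77%), namely RCL1, DDX47 and WDR75, where 4.54% of all genes did. By DESeq2, RCL1 also reached an adjusted p of 0.0133, where 0.543% of genes were under 0.05. Of the 53 identifiers, 48 had a log2 fold change within 0.5 of zero, beside 16210 of all 19987 tested genes. These sets are not matched for level, because 52 of the identifiers but only 9947 of the tested genes had at least 10 CPM. The median without KRR1 was 0.08, beside -0.01 over all tested genes, and 39 of 52 (75%) were above zero, beside 48.8% of all genes.

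The CPM of the groups did not overlap for 9 of 53 (17%), where 11% of all tested genes did not overlap. Without KRR1, which was chosen on this contrast, the count was 8 of 52 (15.4%). Of the 9, 7 were higher in CYGB (5.72% of all genes) and 2 lower, KRR1 and UTP18 (5.31% of all genes). The shares of all genes here are likewise not matched for level.

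In the UTP-A complex, which binds the 5′ end of the precursor and is tied to its transcription, 0 of 6 members passed the threshold. HEATR1, the human UTP10, had 56.8, 26.7 and 43.0 CPM in MOCK and 15.0, 56.0 and 75.7 in CYGB. Its CYGB libraries spanned both sides of MOCK, and its log2 fold change was 0.21 (SE 0.59). WDR75, the human UTP17, had 64.9, 83.8 and 51.4 CPM in MOCK and 52.5, 34.9 and 43.6 in CYGB. Only CYGB replicate 1 reached into the MOCK range, and the log2 fold change was -0.61 (SE 0.23, edgeR adjusted p = 0.963). UTP15, a WD-repeat subunit, had a log2 fold change of -0.23 (SE 0.15), and UTP4, WDR43 and NOL11 had 0.08, 0.15 and 0.16.

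In UTP-B, the complex that joins the U3 particle to the precursor, 0 of 6 members passed. UTP18 had 125.3, 122.2 and 124.9 CPM in MOCK and 118.0, 121.8 and 113.9 in CYGB. Its groups were barely apart, with a log2 fold change of -0.07 (SE 0.07). WDR3, the human UTP12, had 90.6, 95.6 and 2.10 CPM in MOCK and 113, 59.2 and 91.9 in CYGB. MOCK replicate 3 alone was low, and without it the log2 fold change of WDR3 was -0.08 in place of 0.49. TBL3, the human UTP13, had 79.3, 77.1 and 90.4 CPM against 90.5, 89.6 and 104, a log2 fold change of 0.20 (SE 0.11). Its CYGB replicate 2 lay below MOCK replicate 3, so the groups met at their edges. PWP2, UTP6 and WDR36 had log2 fold changes of 0.08, 0.08 and 0.13.

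Among the small nucleolar ribonucleoprotein genes 0 of 5 passed. FBL, fibrillarin, the methyltransferase of box C/D particles, had 309, 161 and 148 CPM in MOCK and 271, 285 and 311 in CYGB. MOCK replicate 1 stood with the CYGB libraries, and the log2 fold change was 0.49 (SE 0.29, edgeR adjusted p = 0.963). Without MOCK replicate 1 it was 0.90 (unadjusted p = 0.000253, edgeR adjusted p = 0.252), and without MOCK replicate 3 it was 0.30. RRP9, a U3-specific protein, had 6.29, 37.1 and 19.3 CPM in MOCK and 16.8, 27.3 and 9.14 in CYGB, and the range within either group exceeded the difference between them. NOP56, which holds box C/D particles together with NOP58, had 107, 117 and 116 CPM against 151, 109 and 126 (log2 fold change 0.18). NOP58 and DKC1, the pseudouridine synthase dyskerin, had log2 fold changes of 0.27 (SE 0.28) and -0.07 (SE 0.24).

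In the MPP10 and UTP-C modules 0 of 6 passed. NOL6, the human UTP22, had 42.7, 40.8 and 45.01 CPM in MOCK and 54.9, 45.8 and 47.5 in CYGB. Its partner RRP7A had 59.97, 63.0 and 62.8 against 78.0, 68.3 and 63.3 CPM. Both were higher in every CYGB library than in every MOCK library, by log2 fold changes of 0.21 (SE 0.11) and 0.17 (SE 0.11), with edgeR adjusted p-values of 0.963. IMP3, which bridges U3 and the precursor, had 99.8, 61.1 and 83.0 CPM against 67.0, 111 and 24.6. Its CYGB values ran both above and below MOCK, and the log2 fold change was -0.27 (SE 0.52). IMP4, MPHOSPH10 and UTP3 had 0.16, 0.15 and 0.06.

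Of the central factors other than KRR1, 0 of 15 identifiers passed. RCL1, the endonuclease-like partner of BMS1, had 14.4, 17.1 and 17.0 CPM in MOCK and 23.2, 24.2 and 28.3 in CYGB. Every CYGB library was above every MOCK library, with a log2 fold change of 0.64 (SE 0.14). Its unadjusted p was 0.0035 and its edgeR adjusted p was 0.963. BMS1, the GTPase that RCL1 binds, had 92.6, 46.0 and 41.7 CPM against 156, 49.6 and 130. MOCK replicate 1 and CYGB replicate 2 crossed into the other group's range, and the log2 fold change was 0.90 (SE 0.50, edgeR adjusted p = 0.963). It was 1.35 without MOCK replicate 1 and 0.58 without CYGB replicate 1. BMS1 has near-identical copies on its chromosome, so its counts are uncertain where reads could be split among them.

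NOP14 and NOC4L, which form a scaffold pair of the particle, both had groups that did not overlap. NOP14 had 141, 135 and 138 CPM in MOCK and 158, 143 and 146 in CYGB (log2 fold change 0.11, SE 0.07). NOC4L had 37.6, 38.2 and 36.2 against 44.95, 41.1 and 39.1 CPM (0.16, SE 0.10). AATF, a component of a nucleolar subcomplex with NGDN and NOL10, had 162, 160 and 167 CPM against 161, 170 and 166, the smallest SD within groups of any member. It stood near KRR1 in MOCK and had a log2 fold change of 0.02 (SE 0.06). The main EMG1 identifier, a methyltransferase, had 79.4, 84.1 and 86.6 CPM against 105, 89.9 and 84.8, while the second one held 0 to 137 counts per library. UTP14A, NAT10, WDR46, UTP20, DCAF13, NGDN, PDCD11 and NOL10 had log2 fold changes between -0.01 and 0.26.

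Of the 5 helicases, which remodel the precursor, 0 passed. DDX47 had 94.8, 91.4 and 77.4 CPM in MOCK and 77.8, 62.3 and 65.5 in CYGB. CYGB replicate 1 and MOCK replicate 3 met, and the log2 fold change was -0.36 (SE 0.13, edgeR adjusted p = 0.963). DHX37, which releases U3 from the particle, had 57.4, 57.2 and 60.05 against 78.3, 57.4 and 67.2 CPM (0.22, SE 0.13). DDX10, DDX52 and DDX49 had -0.09, -0.01 and 0.09.

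Of the 7 late 40S factors, 0 passed. The kinase RIOK2 had 27.2, 27.5 and 28.9 CPM in MOCK and 39.5, 30.5 and 31.3 in CYGB, and BYSL, bystin, had 39.8, 37.5 and 39.1 against 44.2, 41.3 and 41.9. Both were higher in every CYGB library, by log2 fold changes of 0.28 (SE 0.14) and 0.13 (SE 0.09), with edgeR adjusted p-values of 0.963. RIOK1, a related kinase, had 37.6, 34.1 and 21.4 against 43.2, 12.5 and 13.6 CPM. CYGB replicate 1 was its highest library and the other CYGB libraries its lowest, so its log2 fold change was -0.43 (SE 0.53) with all libraries and -1.25 without CYGB replicate 1, which passed the threshold at an unadjusted p of 0.00688. NOB1, the endonuclease of the last 18S cleavage, had 118, 123 and 131.3 CPM against 136, 122 and 134 (0.07, SE 0.08). PNO1, LTV1 and TSR1 had 0.19, 0.02 and 0.02.

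WDR12 and RRS1, which act mainly in large subunit assembly, gave log2 fold changes of -0.04 (SE 0.10) and 0.22 (SE 0.19). RRS1 had 44.4, 40.1 and 44.6 CPM in MOCK and 64.9, 42.4 and 43.1 in CYGB, and only CYGB replicate 1 stood above the rest. Without it the log2 fold change of RRS1 was -0.01.

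By TPM, which allows levels of different genes to be set side by side, FBL was the most abundant member with a mean of 517 over the 6 libraries (286 to 658). NOB1 followed with 158 (140.0 to 170), NOP56 with 155 (136 to 187), AATF with 152 (147 to 164) and UTP18 with 129 (119 to 136). NOB1, NOP56 and AATF overlapped in range and cannot be ordered among themselves, and UTP18 overlapped NOP56. Leaving out KRR1 and the second EMG1 identifier, UTP20 with 11.6 TPM (10.3 to 13.5) and HEATR1 with 12.95 TPM (6.18 to 19.6) had the lowest means, in overlapping ranges.

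**Figure D3:**
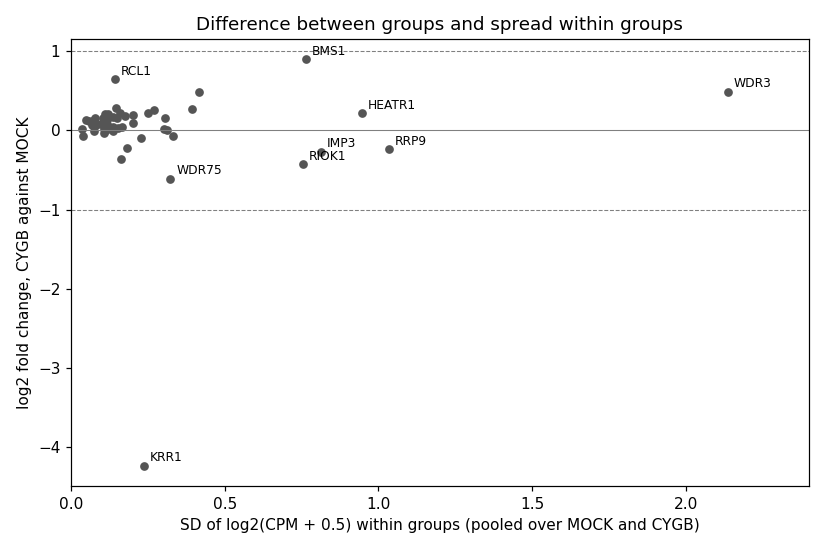
For 52 members (the second EMG1 identifier is left out), the log2 fold change of CYGB against MOCK is plotted against the SD of log2(CPM + 0.5) within groups; dashed lines mark a ratio of 2 and of 0.5. Most members lie near 0 with a small SD, KRR1 lies at -4.23, and WDR3 has the largest SD, 2.14.

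The spread within groups differed greatly among members. Of 52 identifiers of at least 10 CPM, 35 stayed within 1.5-fold in both groups. For 7 of 52 (13.5%) the highest library exceeded 2 times the lowest within a group, against 20.2% of 9947 genes of that level. These were IMP3, HEATR1, WDR3, BMS1, RIOK1, RRP9 and FBL. In WDR3 the swing lay in its 9974-base coding transcript, which had 4137, 4872 and 0 counts in MOCK and 5495, 2865 and 4644 in CYGB.

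CYGB replicate 1 stood apart for these genes. It was the highest of the 6 libraries for 31 of 53 identifiers (58.5%), while 21.2% of the 9947 genes of at least 10 CPM had their highest value there. Relative to each gene's mean over the libraries, the median log2 deviation of 51 members, KRR1 left out, was 0.17 in CYGB replicate 1 and between -0.05 and -0.01 in the other 5 libraries. Over all 9947 genes it was 0.02 in that library. The median log2 fold change of the members was 0.08 with all libraries and 0.03 without CYGB replicate 1. NOL6, RRP7A, NOP14, NOC4L, BYSL and RIOK2 all had their highest value in this library. Without it their log2 fold changes stayed above zero but were smaller. RRP7A was at 0.087 in place of 0.17, RIOK2 at 0.15 in place of 0.28 and NOL6 at 0.12 in place of 0.21. NOP14 was at 0.067 in place of 0.11, NOC4L at 0.10 in place of 0.16 and BYSL at 0.098 in place of 0.13.

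Counted per transcript, 349 member transcripts were listed and 234 tested. Of these 5 passed the threshold (2.14%), where 1.02% of all tested transcripts did, with 3 higher (0.54% of all) and 2 lower in CYGB (0.482% of all). The coding KRR1 transcript is included here and in the DESeq2 count below, and KRR1 was chosen on this contrast. By edgeR 0 of 234 reached an adjusted p under 0.05, where 0.015% of all transcripts did. At an unadjusted p under 0.05 the edgeR test gave 14 of 234 (5.98%), where 3.78% of all transcripts were. By DESeq2, which gave an adjusted p for 231 of them, 6 were under 0.05, where 1.14% of all transcripts were. These were the coding KRR1 transcript, ENST00000544745 and ENST00000308736 of DHX37, ENST00000569628 of TBL3, ENST00000508491 of UTP15 and ENST00000381750, the main RCL1 transcript. The 5 transcripts past the threshold by edgeR belonged to 5 genes, KRR1, DHX37, TBL3, UTP15 and RCL1. Over all genes 3.03% had a transcript past that threshold by edgeR.

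In DHX37 the division among transcripts differed more than the total. ENST00000544745 had 2025, 2150 and 2339 counts in MOCK and 392, 144 and 171 in CYGB (log2 fold change -3.21, adjusted p = 0.226 by edgeR and 2.55e-07 by DESeq2), and its share of the gene was 73.8% in MOCK and 6.80% in CYGB. ENST00000308736 had 156, 10 and 226 against 833, 2380 and 2988 counts (DESeq2 adjusted p = 0.0374). ENST00000539298 had 386, 709 and 366 against 2505, 255 and 225. The first was lower in every CYGB library and the second higher, while the last was high in CYGB replicate 1 only. Of the windows of 150 bases along ENST00000544745, 8.71% occur in no other DHX37 transcript, and for ENST00000308736 the figure is 0%, so most reads do not tell these transcripts apart.

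In TBL3, ENST00000569628 had 0 counts in each MOCK library and 321, 1628 and 86 in CYGB (adjusted p = 0.766 by edgeR and 3.18e-07 by DESeq2). Its CYGB mean of 13.3 CPM ± 16.4 (SD, n = 3) was 224 times a floor of 3 counts per library. CYGB replicate 2 carried this ratio of means, which was 67.1 without it. By edgeR the transcript no longer passed the threshold without any one of the MOCK libraries, without CYGB replicate 1 or with a replicate block. ENST00000615855 had 3206 counts in MOCK replicate 3 and 0 in the other 5 libraries, and ENST00000332704 had 1145 in CYGB replicate 1 and 0 elsewhere. Of the windows of 150 bases along these 3 transcripts, 8.998%, 24.4% and 7.62% occur in no other TBL3 transcript, so most of their reads could be assigned to another one, and whether the transcripts or only the division of reads differed was not tested. In UTP15, ENST00000508491 had 0 counts in each MOCK library and 92, 93 and 188 in CYGB (adjusted p = 0.209 by edgeR and 1.77e-09 by DESeq2). Its CYGB mean was 40.5 times the same floor. The main UTP15 transcript, ENST00000296792, had 587 to 1416 counts per library. Only 8.76% of the windows of ENST00000508491 and 1.16% of those of ENST00000296792 occur in no other UTP15 transcript. In RCL1, ENST00000381732 had 10, 11 and 10 counts against 29, 21 and 45 (log2 fold change 1.59, adjusted p = 0.888 by edgeR and 0.138 by DESeq2). It moved the same way as the whole gene and held a small share of it.

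**Figure D4:**
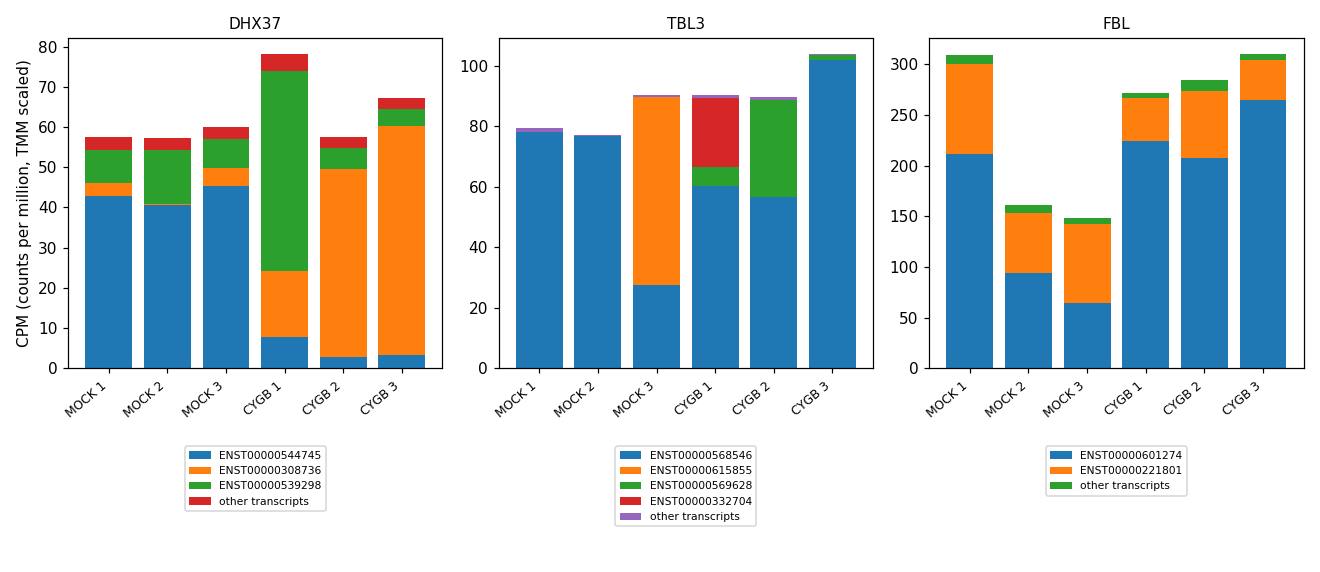
Stacked bars give CPM by library for the transcripts of DHX37, TBL3 and FBL. The DHX37 total is 57.2 to 78.3 CPM while its main transcript differs between the groups and among CYGB libraries, and the TBL3 and FBL transcripts are divided differently within groups.

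The most abundant transcript was the same in all 6 libraries for 37 of 47 members with several transcripts (78.7%) and differed within a group for 10 (21.3%). In 9292 genes of at least 10 CPM with several transcripts, the figures were 63.4% and 36.1%. No member had 1 leading transcript in every MOCK library and another in every CYGB library, a pattern of 0.495% of those genes. KRR1 kept its coding transcript as the leading one in all 6 libraries.

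Related machinery was read from lists by function. Of 47 large subunit (60S) assembly genes, 21 RNA polymerase I genes and factors, 29 other nucleolar and 40S factors, 15 exosome genes and 18 genes of ribosomal stress and p53, none passed the threshold. At an unadjusted p under 0.05 the edgeR test gave 3, 1, 1, 1 and 0 of them, where 4.54% of all genes did. Their median log2 fold changes were 0.09, 0.07, -0.01, 0.05 and -0.02. The last list ranged from -2.51 for MDM2 to 0.73 for CDKN1A. MDM2 had 15015, 1144 and 1074 counts in MOCK and 969, 1077 and 1211 in CYGB, so only MOCK replicate 1 stood apart. CDKN1A had 11881, 29932 and 11904 counts in MOCK and 25650, 29476 and 34453 in CYGB, and its groups overlapped. KRI1, the partner of KRR1, had means of 36.3 CPM ± 9.10 for MOCK and 40.2 CPM ± 11.0 for CYGB (SD, n = 3). CYGB replicate 1 was also the highest library for 31 of 44 large subunit genes of at least 10 CPM (70.5%) and 11 of 21 RNA polymerase I genes (52.4%), with median log2 deviations of 0.21 and 0.19 there.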

How the data were processed

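Total RNA of 6 HCT116 libraries was sequenced as paired-end reads on an Illumina NovaSeq. The authors deposited a table of raw counts per transcript, with Ensembl transcripts and assembled transcripts. The submitters' processing notes name HISAT2, HISAT, DESeq2 and hg19, while the positions given here are GRCh38 coordinates of GENCODE 29. The counting tool and its treatment of strand are not given in the sources used here. Transcripts without a gene held 18.6% to 19.5% of counts and stayed out of the gene totals.

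Counts were summed per gene identifier and tested with edgeR 4.0.16 (R 4.3.3; TMM scaling, filterByExpr with a minimum count of 10, quasi-likelihood test, no covariates) on all 19987 genes and on 66609 transcripts, with Benjamini-Hochberg adjustment over each table. DESeq2 1.42.0, other scaling and filters, a replicate block and leaving out each library were alternatives. CPM used TMM library sizes, and TPM used GENCODE transcript lengths. No 2 libraries of a group agreed within sampling noise (chi-square of 114 to 143 per gene). Scripts were tested on simulated data. Figures were drawn with matplotlib 3.10.9.

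The members and lists were chosen with earlier results of these data known. Named genes are KRR1, members past a threshold or without overlap, the highest and lowest log2 fold change of each role group, the 5 most abundant, the largest and smallest SD, and members with a transcript past the threshold. Where values of other members are given in a row, they complete their role group. Each SE is the absolute log2 fold change divided by the square root of the edgeR quasi-likelihood F. It therefore includes the spread between libraries, which the floor of 3 counts does not cover.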

Additional observations from a re-analysis of the deposited data

Results flagged for a closer look

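An assembled transcript without a gene, outside the counts summed per gene, had a mean of 147 CPM in the CYGB libraries and 0.719 CPM in the MOCK libraries. It was picked out because its signal lay in data that the gene comparison does not use and was above the level of the control samples. It was found by a search for counts that fill the KRR1 shortfall, chosen after seeing the data, and its position was not analysed here. Its part in the KRR1 result was not tested.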

How the results depend on the processing

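The KRR1 log2 fold change of -4.23 ranged from -4.39 to -4.06 when 1 library was left out. It was -3.41 with GLIPR1 counts added, -0.18 with the closest unnamed transcript added and -0.052 with all unnamed transcripts of the same locus number added, both chosen after seeing the data. By transcript alone it was -4.72 for ENST00000229214, -0.69 for ENST00000551070, 0.19 for ENST00000550898 and 0.41 for ENST00000550023. The cause of these differences between transcripts was not tested.

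Replicate numbers did not pair the libraries (correlations of deviations 0.03, 0.01 and 0.03). With a replicate block, 0 members reached an adjusted p under 0.05 and 2 member transcripts passed the threshold. With DESeq2 the counts were 2 members (KRR1 and RCL1) and 8 transcripts, in place of 1 and 5. The adjusted p of RCL1 ranged from 0.0133 to 0.999944. With 1 library left out, 1 to 2 members passed the threshold (2 without CYGB replicate 1, with RIOK1 at -1.25), as did 4 to 8 member transcripts (8 without CYGB replicate 3) and 0 to 2 genes of the related lists (CDKN1A and EIF6 without MOCK replicate 2, and MDM4 without MOCK replicate 3). The median of the members lay between 0.03 and 0.11.

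Over the 25 named members other than KRR1, 314 values kept direction and side of the threshold, 10 changed sign and 1 (RIOK1) newly passed the threshold in the same direction. At gene level 22 of 53 identifiers changed sign in some alternative, 7 of 26 named and 15 of 27 others. With 1 library left out, values ranged from -0.83 (without CYGB replicate 2) to 0.13 (without CYGB replicate 3) for IMP3, from -0.25 (CYGB replicate 3) to 0.64 (CYGB replicate 1) for HEATR1, and from -0.69 (CYGB replicate 2) to 0.47 (MOCK replicate 2) for RRP9. They ranged from -0.083 (MOCK replicate 3) to 0.92 (MOCK replicate 2) for WDR3, from -0.011 (CYGB replicate 1) to 0.32 (CYGB replicate 2) for RRS1, from -0.13 (CYGB replicate 1) to 0.0079 (CYGB replicate 3) for WDR12, and from -0.0018 (CYGB replicate 2) to 0.039 (CYGB replicate 1) for AATF. HEATR1 was also below zero without MOCK replicate 2 (-0.029), and RRP9 above zero without CYGB replicate 3 (0.077). DHX37 was -3.21 by its most abundant transcript alone, past the threshold in the other direction. Without changing sign, FBL ranged from 0.30 (MOCK replicate 3) to 0.90 (MOCK replicate 1) and BMS1 from 0.58 (CYGB replicate 1) to 1.35 (MOCK replicate 1). Replicates varied by 36.6% for genes and 78.9% for transcripts (common biological coefficient of variation), which limits what 3 libraries per group can show.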
